A study of Mus musculus with 12 samples.

Results

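The 35 genes described here encode the enzymes that make, interconvert and recycle the building blocks of RNA and DNA. They were chosen by name from what each enzyme does, with earlier results of these data known. They are 35 of the 55228 gene symbols in the expression table. All 35 passed the filter on low values and were tested among 15043 genes. Cultured mouse regulatory T cells (Tregs) gave 12 RNA libraries, 3 in each of 4 groups. Foxp3-GFP+ CD25+ Tregs from the lymph nodes of 16 NOD.Foxp3-GFP mice were purified as 3 parts of a single pool, activated, and transduced on day 2 with a Thy1.1-marked construct. EV Tregs carried the empty vector, whereas 1G12t and 3A10t Tregs carried an orthogonal IL-2, 1G12 or 3A10, joined by a CD25-derived linker to the orthogonal IL-2 receptor β chain. IL-2 was washed out on day 4 for EV no IL-2, 1G12t and 3A10t Tregs, whereas EV+IL-2 Tregs stayed in medium with IL-2, and the Thy1.1+ fraction was purified by sorting at day 9. Replicates therefore are separate cultures of pooled animals, and their number marks a shared sort, not a separate mouse.

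Dividing cells need both ribonucleotides and deoxyribonucleotides. De novo synthesis builds the pyrimidine ring and the purine ring from amino acids, one-carbon units and phosphoribosyl pyrophosphate (PRPP), and salvage enzymes rebuild nucleotides from free bases and nucleosides. Ribonucleotide reductase and thymidylate synthase turn ribonucleotides into the precursors of DNA, and several genes of this last branch are known for transcription that peaks as cells enter S phase. T cells draw on both routes when they proliferate, and IL-2 is the main growth factor of Tregs.

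Values are TPM, a gene's share of the transcripts in a library after correction for transcript length, rescaled between libraries. A fold change is a difference of group means on the scale log2(TPM + 1), given with its standard error (SE), and a gene is called changed at an adjusted p under 0.05 from limma, a moderated linear model fitted over all genes tested. TPM keep no read number, so the depth of the libraries is unknown and only the spread between 3 libraries is given. Between 30393 and 43285 symbols per library had a TPM above 0. Among markers of the sorted cell, Foxp3 was at 369 to 510 TPM and Cd4 at 177 to 323 TPM in the 12 libraries. Markers of other cells were mixed. Of B cell markers Ms4a1 was under 1 TPM in each library, but Cd79a was at 0.935 to 2.22 TPM and Cd79b at 6.75 to 13.3 TPM. Of CD8 T cell markers Cd8a was under 1 TPM and Cd8b1 at 3.11 to 5.74 TPM. Of NK and myeloid markers Ncr1, Klrb1c, Lyz2, S100a8 and S100a9 were under 1 TPM, Csf1r reached 1.73 TPM, and Cst3, which is not confined to myeloid cells, was at 440 to 762 TPM. The haemoglobin gene Hba-a1 averaged 18.2 TPM in EV+IL-2 and 0.661 TPM in EV no IL-2 Tregs, whereas Hbb-bs and Hbb-bt were at most 1.42 and 1.94 TPM in any library. The part of these markers in the results was not tested. In bulk RNA, fewer cells of a type and less RNA per cell cannot be told apart. The 3A10t libraries were unlike each other. The median within-group SD of the 35 genes on the log2 scale was 0.23 for 3A10t Tregs, 0.13 for 1G12t, 0.092 for EV+IL-2 and 0.081 for EV no IL-2.

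RefSeq windows around the transcription start, from 250 bases before to 50 bases after it, were found for 32 of the 35 genes. The stretches upstream of the annotated exons are shown in the direction of transcription on GRCm38.p6 for 4 genes that rose with IL-2, the gene with the largest rise in each of the reductase, deoxynucleotide salvage, thymidylate and CTP branches, to set them beside a motif that Myc-type factors can bind. They were picked after their values were seen, and Shmt1 and Dut, which are not shown, rose by more than Ctps. The capitals in the Tyms sequence mark this motif, the E-box CACGTG, whose first base lies 61 bases before the start. The other 3 sequences hold no motif that was searched. They come from chr12:24708004-24708240 (+ strand) for Rrm2, chr11:117826093-117826264 (- strand) for Tk1, chr5:30073626-30073875 (- strand) for Tyms and chr4:120570277-120570526 (- strand) for Ctps.
Rrm2: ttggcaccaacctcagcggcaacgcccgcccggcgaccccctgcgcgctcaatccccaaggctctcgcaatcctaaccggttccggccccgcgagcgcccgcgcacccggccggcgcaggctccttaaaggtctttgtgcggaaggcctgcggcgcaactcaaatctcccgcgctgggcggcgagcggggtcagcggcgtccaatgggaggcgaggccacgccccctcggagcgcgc
Tk1: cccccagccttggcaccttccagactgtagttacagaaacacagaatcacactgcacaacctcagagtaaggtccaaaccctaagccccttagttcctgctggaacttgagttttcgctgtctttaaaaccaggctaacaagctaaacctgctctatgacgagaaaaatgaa
Tyms: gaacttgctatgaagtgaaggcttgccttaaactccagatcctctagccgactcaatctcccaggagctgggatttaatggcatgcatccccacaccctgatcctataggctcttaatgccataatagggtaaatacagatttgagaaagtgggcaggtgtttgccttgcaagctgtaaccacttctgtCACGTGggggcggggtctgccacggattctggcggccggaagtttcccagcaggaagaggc
Ctps: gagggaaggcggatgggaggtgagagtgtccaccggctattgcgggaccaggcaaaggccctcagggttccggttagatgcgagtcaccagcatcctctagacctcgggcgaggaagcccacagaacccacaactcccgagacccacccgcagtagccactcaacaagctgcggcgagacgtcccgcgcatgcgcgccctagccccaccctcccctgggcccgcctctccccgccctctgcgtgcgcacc
Searched on both strands of the whole window, CACGTG was present in 6 of the 32 genes (18.8%), namely Atic, Dtymk, Tyms, Paics, Impdh2 and Nme1, against 11.9% of 9334 tested genes with a window and 8.09% of all 27025 symbols. Letters of the E2F type (TTTGGCGC, TTTCCCGC, TTTCGCGC or TTTGCCGC) were present in 2 of the 32 (6.25%), Ppat and Prps2, against 4.8% of tested genes and 2.6% of all symbols. Rrm2, Tk1, Shmt1 and Dut, 4 of the 5 most stable increases below, held neither set of letters in this window. By the shares above, most tested genes hold neither. The Shmt1 and Dut windows lie inside the annotated genes, with 49 and 170 of their first 250 bases in exons. These 2 windows therefore do not reach upstream of the annotated gene. A match is only a run of letters, and its absence covers only these 300 bases.

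Of the 3 comparisons with EV no IL-2, that of EV+IL-2 Tregs had the most members called. In EV+IL-2 Tregs 9 of the 35 genes were called, 8 higher (Rrm2, Tk1, Tyms, Shmt1, Dut, Ctps, Nme1 and Uck2) and 1 lower (Rrm2b), which is 25.7% against 13.3% of all genes tested. By direction, 8.17% of all genes were called higher and 5.13% lower. The median log2 fold change of the 35 genes was 0.23, against -0.014 over all genes tested. In 22 of the 35 genes the libraries of both groups did not overlap, 19 higher and 3 lower in EV+IL-2 Tregs, against 19.6% of all genes apart and higher and 20% apart and lower. In 3A10t Tregs 1 gene was called against EV no IL-2, Shmt1, which was higher (2.86% of members against 2.05% of all genes, with 0.452% of all genes called higher). In 1G12t Tregs limma called 0 of the 35 genes, against 0.0199% of all genes, and 2 had an unadjusted p under 0.05 (7.04% of all genes), against 17 in EV+IL-2 (26.3% of all genes) and 15 in 3A10t Tregs (26% of all genes). Leaving out EV+IL-2 replicate 1 reduced the 9 calls to 5 (8.08% of all genes were then called), and leaving out 3A10t replicate 1 raised them to 14 (16.6% of all genes). The study's own limits (unadjusted p below 0.01, log2 fold change larger than 0.25 in size) were met by 9 members in EV+IL-2 Tregs (15.1% of all genes), by 7 in 3A10t Tregs (9.5% of all genes) and by 1 in 1G12t Tregs (1.36% of all genes). These 3 comparisons share the EV no IL-2 libraries.

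**Figure D1:**
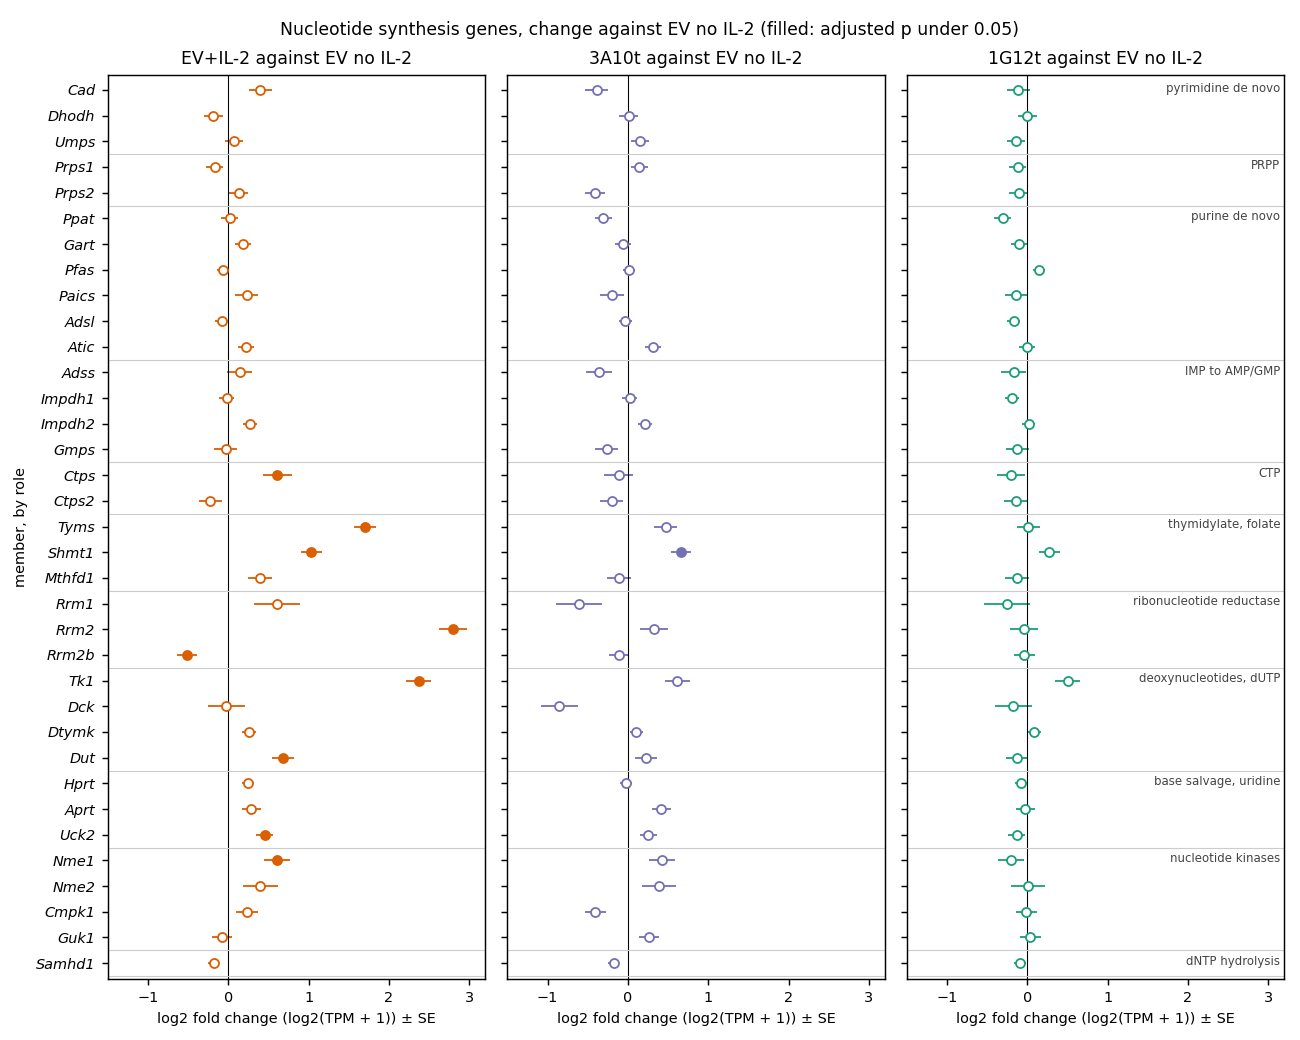
Log2 fold change of each of the 35 genes relative to EV no IL-2 (x axis, log2(TPM + 1) scale, bars show the SE) in EV+IL-2, 3A10t and 1G12t Tregs, with genes in rows by role. Filled points have an adjusted p under 0.05. These are 9 genes in EV+IL-2, led by Rrm2 at 2.80 and Tk1 at 2.37, Shmt1 in 3A10t and 0 in 1G12t.

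Ribonucleotide reductase makes deoxyribonucleotides from ribonucleotides, with Rrm1 as the large subunit and Rrm2 or Rrm2b as the small one. Rrm2, the small subunit of dividing cells, was at 15.1, 12.3 and 12.7 TPM in EV no IL-2 and at 110, 107 and 81.3 TPM in EV+IL-2 Tregs. It was at 16.0, 13.2 and 10.1 TPM in 1G12t and at 17.2, 14.4 and 19.5 TPM in 3A10t Tregs. The EV+IL-2 libraries stood far above the 9 others, which overlapped each other. The log2 fold change of Rrm2 in EV+IL-2 was 2.80 (SE 0.18, adjusted p = 5.8e-06), a 7.45-fold ratio of group means. In 3A10t Tregs it was 0.33 (SE 0.18, adjusted p = 0.26), with a 95% interval from -0.06 to 0.71.

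Rrm2b, the p53-inducible small subunit that serves resting cells and DNA repair, was the member called lower. It was at 13.8, 16.2 and 14.0 TPM in EV no IL-2 and at 8.20, 10.5 and 11.4 TPM in EV+IL-2 Tregs, with 12.5, 15.4 and 15.0 TPM in 1G12t and 12.8, 14.6 and 13.1 TPM in 3A10t Tregs. All EV+IL-2 libraries lay below all others. It fell by 0.52 on the log2 scale (SE 0.13, adjusted p = 0.020). Without EV no IL-2 replicate 2 or EV+IL-2 replicate 1 it was not called (log2 fold change -0.45 to -0.39, adjusted p = 0.081 in both). The call was also lost without the filter on low TPM (adjusted p = 0.060) and in a fit of only the 6 libraries of both EV groups (adjusted p = 0.056), where 17 members were called, all higher (21.3% of all genes called). The pseudogene Gm3362, which lies inside Rrm2b on the same strand, was at 4.70 to 15.5 TPM in the 12 libraries and could share reads with it.

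Rrm1 had 38.8, 45.6 and 38.9 TPM in EV no IL-2 and 73.4, 61.9 and 55.1 TPM in EV+IL-2 Tregs, so the 2 groups did not overlap. Its log2 fold change of 0.61 (SE 0.29) had an adjusted p of 0.21. In 3A10t Tregs Rrm1 was at 47.3 TPM in replicate 1 but at 19.2 and 20.4 TPM in replicates 2 and 3, the widest relative spread of any member within a group (SD 54.7% of the mean). Since all 12 libraries share an estimate of the spread, that difference enters the SE of the other comparisons too.

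The ratio of both small subunits changed with IL-2. Rrm2 over Rrm2b was 0.758 to 1.10 in EV no IL-2, 7.11 to 13.5 in EV+IL-2, 0.673 to 1.28 in 1G12t and 0.992 to 1.49 in 3A10t Tregs. The EV+IL-2 libraries lay apart from the other 9, which ran from 0.673 to 1.49. This pair was set side by side after its values were seen.

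**Figure D2:**
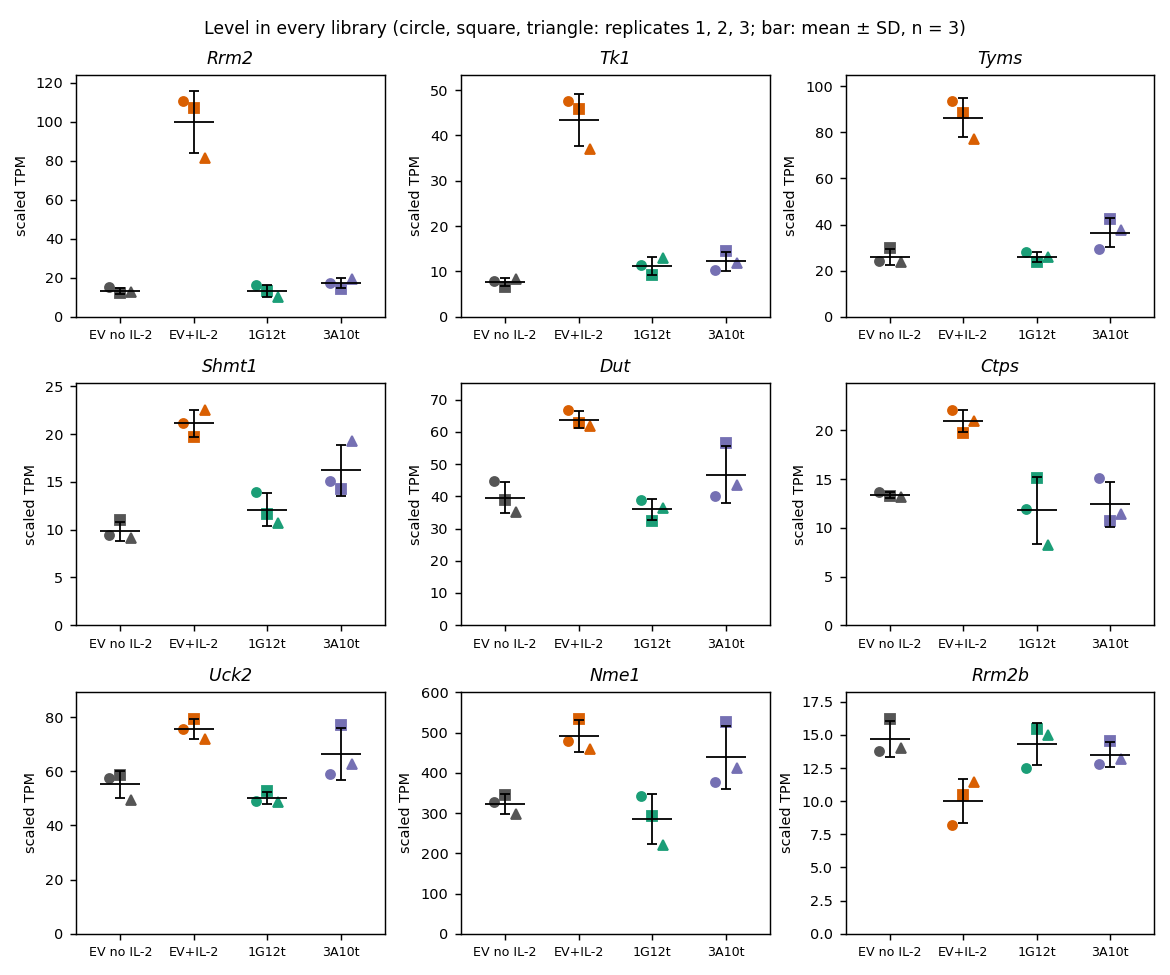
Scaled TPM (y axis, from 0) of the 9 called members in each library of the 4 groups. Circles, squares and triangles are replicates 1, 2 and 3, and black bars the mean and SD of 3. For Rrm2, Tk1 and Tyms the EV+IL-2 libraries lie far above the other 9, for Rrm2b they lie below them, and for Uck2 and Nme1 3A10t replicate 2 lies within the EV+IL-2 range.

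Thymidylate synthesis adds the methyl group that distinguishes the DNA base thymine, and it uses folate-borne one-carbon units. Tyms, thymidylate synthase itself, was at 24.1, 29.9 and 23.8 TPM in EV no IL-2 and at 93.4, 88.6 and 77.0 TPM in EV+IL-2 Tregs. In 1G12t Tregs it was at 28.1, 23.9 and 26.0 TPM, and in 3A10t Tregs at 29.6, 42.4 and 37.5 TPM. The lowest 3A10t library lay within the EV no IL-2 range, whereas the other two lay above it. On the log2 scale Tyms rose in EV+IL-2 by 1.70 (SE 0.14, adjusted p = 2.1e-05). Its log2 fold change in 3A10t was 0.47 (SE 0.14, unadjusted p = 0.0067, adjusted p = 0.092), past the study's own limits but not called.

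Shmt1, the cytosolic serine hydroxymethyltransferase that charges folate with a one-carbon unit, was the member called in both EV+IL-2 and 3A10t Tregs. It was at 9.43, 11.0 and 9.10 TPM in EV no IL-2, at 21.1, 19.7 and 22.5 TPM in EV+IL-2, at 14.0, 11.7 and 10.7 TPM in 1G12t and at 15.1, 14.3 and 19.3 TPM in 3A10t Tregs. All 3A10t libraries lay above all EV no IL-2 libraries and below all EV+IL-2 libraries. The log2 fold change was 1.03 in EV+IL-2 (SE 0.13, adjusted p = 0.00038) and 0.66 in 3A10t (SE 0.13, adjusted p = 0.037). The 3A10t call was lost on leaving out any 1 of 9 libraries, namely each EV no IL-2 and each EV+IL-2 library, 1G12t replicate 2 and 3A10t replicates 2 and 3, while the log2 fold change stayed between 0.54 and 0.74 (adjusted p = 0.058 to 0.15). It was also lost without the filter, on TPM as deposited and in a fit of only the 6 libraries compared (log2 fold change 0.52 to 0.66, adjusted p = 0.060, 0.064 and 0.26). Shmt1 overlaps Smcr8 on the opposite strand by 184 bases, and the kit does not record strand. Mthfd1, which interconverts cytosolic folates, averaged 36.1 ± 1.6 TPM in EV+IL-2 and 27.2 ± 1.6 TPM in EV no IL-2 Tregs (SD, n = 3), with no overlap and an adjusted p of 0.11.

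Deoxynucleosides are salvaged by kinases, and dUTP is removed by a pyrophosphatase that also supplies dUMP for thymidylate. Tk1, the cytosolic thymidine kinase of S phase, was at 7.86, 6.60 and 8.24 TPM in EV no IL-2 and at 47.5, 45.9 and 36.9 TPM in EV+IL-2 Tregs. It was at 11.5, 9.15 and 12.9 TPM in 1G12t and at 10.3, 14.6 and 11.8 TPM in 3A10t Tregs. Both tethered groups lay above every EV no IL-2 library and far below every EV+IL-2 library. The log2 fold change was 2.37 in EV+IL-2 (SE 0.16, adjusted p = 6.9e-06). It was 0.62 in 3A10t (SE 0.16, unadjusted p = 0.0024, adjusted p = 0.068) and 0.50 in 1G12t (SE 0.16, unadjusted p = 0.0088, adjusted p = 0.68). Tk1 was the one member within the study's own limits in 1G12t Tregs. Its start overlaps that of Afmid on the opposite strand, which averaged 25.3 ± 0.92 TPM in EV+IL-2 and 28.0 ± 0.69 TPM in EV no IL-2 Tregs.

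Dut, the dUTP pyrophosphatase, was at 44.8, 38.7 and 35.2 TPM in EV no IL-2 and at 66.8, 62.7 and 61.9 TPM in EV+IL-2 Tregs, with 38.8, 32.4 and 36.5 TPM in 1G12t and 39.9, 56.7 and 43.4 TPM in 3A10t Tregs. EV+IL-2 stood apart from the rest, and the log2 fold change was 0.68 (SE 0.13, adjusted p = 0.0063). Dtymk, which phosphorylates dTMP, had 55.5 ± 2.3 TPM in EV no IL-2 and 66.5 ± 3.0 TPM in EV+IL-2 Tregs, with an adjusted p of 0.068 that became 0.041 with the shared sort as a block. Dck, the deoxycytidine kinase, did not follow Tk1. It was at 29.3, 33.0 and 32.0 TPM in EV no IL-2 and 34.1, 28.4 and 30.1 TPM in EV+IL-2 Tregs. In 3A10t Tregs Dck was at 27.6, 12.3 and 14.2 TPM, all below EV no IL-2, with a log2 fold change of -0.85 (SE 0.23, unadjusted p = 0.0036, adjusted p = 0.075).

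Samhd1 hydrolyses dNTPs and so acts against these branches. It was the most abundant of the 35 genes per length, at 821, 857 and 786 TPM in EV no IL-2, 750, 759 and 665 TPM in EV+IL-2, 783, 780 and 749 TPM in 1G12t and 764, 699 and 718 TPM in 3A10t Tregs. Each of the other groups lay wholly below EV no IL-2. The log2 fold change was -0.18 for EV+IL-2 (adjusted p = 0.12), -0.18 for 3A10t (adjusted p = 0.15) and -0.09 for 1G12t (adjusted p = 0.78), so none was called. A comparison of each other group with EV no IL-2 found 20%, 12.1% and 7.8% of all genes apart and lower for EV+IL-2, 3A10t and 1G12t Tregs.

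CTP synthetase makes CTP from UTP. Of its 2 genes Ctps2 was the more abundant in every library, at 129 to 205 TPM against 8.28 to 22.1 TPM for Ctps. Ctps was at 13.7, 13.3 and 13.1 TPM in EV no IL-2, 22.1, 19.8 and 21.0 TPM in EV+IL-2, 12, 15.1 and 8.28 TPM in 1G12t and 15.1, 10.7 and 11.4 TPM in 3A10t Tregs. Only in EV+IL-2 did all 3 libraries exceed all EV no IL-2 libraries. On the log2 scale Ctps rose in EV+IL-2 by 0.61 (SE 0.18, adjusted p = 0.047), close to the threshold. It was not called on leaving out any EV no IL-2 or EV+IL-2 library, 1G12t replicate 1 or 3A10t replicate 3 (log2 fold change 0.57 to 0.65, adjusted p = 0.060 to 0.15). Nor was it called without the filter, on TPM as deposited, with quantile normalization or without the trend (log2 fold change 0.55 to 0.61, adjusted p = 0.057 to 0.11), so the call was made in 12 of 24 alternatives. Ctps2 averaged 193 ± 10 TPM in EV no IL-2 and 165 ± 10 TPM in EV+IL-2 Tregs, with a log2 fold change of -0.23 (adjusted p = 0.38). Ctps over Ctps2 was 0.0650 to 0.0738 in EV no IL-2 and 0.117 to 0.137 in EV+IL-2 Tregs, whereas 1G12t at 0.0539 to 0.0821 and 3A10t at 0.0601 to 0.0832 overlapped EV no IL-2.

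Uck2 phosphorylates uridine and cytidine, the entry to pyrimidine salvage. It was at 57.5, 58.7 and 49.6 TPM in EV no IL-2, 75.8, 79.5 and 72.1 TPM in EV+IL-2, 49.1, 52.7 and 48.7 TPM in 1G12t and 59.2, 77.2 and 62.8 TPM in 3A10t Tregs. EV+IL-2 and 3A10t libraries all exceeded EV no IL-2. The log2 fold change was 0.45 in EV+IL-2 (SE 0.11, adjusted p = 0.017) and 0.26 in 3A10t (SE 0.11, adjusted p = 0.17). The EV+IL-2 call was lost without EV no IL-2 replicate 3, EV+IL-2 replicate 1 or EV+IL-2 replicate 2 (log2 fold change 0.37 to 0.45, adjusted p = 0.060 to 0.081). Among the purine salvage enzymes, Hprt averaged 181 ± 9.6 TPM in EV no IL-2 and 214 ± 8.4 TPM in EV+IL-2 (adjusted p = 0.059), and Aprt 160 ± 9.4 and 195 ± 9.2 TPM (adjusted p = 0.15). Aprt in 3A10t Tregs was at 188, 266 and 195 TPM, higher than in any EV no IL-2 library, and its log2 fold change was 0.42 (adjusted p = 0.086).

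Nucleotide kinases charge mono- and diphosphates. Nme1, a nucleoside diphosphate kinase, was at 328, 345 and 297 TPM in EV no IL-2, 480, 535 and 460 TPM in EV+IL-2, 343, 293 and 220 TPM in 1G12t and 376, 527 and 412 TPM in 3A10t Tregs. Both EV+IL-2 and 3A10t lay above EV no IL-2 in each library. The log2 fold change was 0.60 in EV+IL-2 (SE 0.16, adjusted p = 0.033) and 0.43 in 3A10t (SE 0.16, adjusted p = 0.14). Leaving out any EV no IL-2 or EV+IL-2 library ended the EV+IL-2 call (log2 fold change 0.54 to 0.65, adjusted p = 0.061 to 0.12), as did dropping the filter (adjusted p = 0.083). Nme2, its neighbour on chromosome 11, was less abundant, at 46.1 to 101 TPM in the 12 libraries, and Nme1 over Nme2 was 4.57 to 5.94 in EV no IL-2 and 5.78 to 5.93 in EV+IL-2 Tregs. A read-through gene that spans both, Gm20390, averaged 155 ± 11 TPM in EV+IL-2 and 95.4 ± 12 TPM in EV no IL-2 Tregs, so the division of reads among the 3 is uncertain. Guk1, which acts on GMP, averaged 120 ± 11 TPM in EV no IL-2 and 113 ± 5.6 TPM in EV+IL-2 Tregs, and Cmpk1, which acts on UMP and CMP, 37.9 ± 0.68 and 44.7 ± 1.3 TPM in the same order, with adjusted p of 0.78 and 0.32.

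De novo pyrimidine synthesis runs through Cad, which starts the ring, Dhodh in mitochondria and Umps, which makes UMP. In none of the 3 comparisons with EV no IL-2 was one of them called. Of all genes tested 13.3%, 2.05% and 0.0199% were called for EV+IL-2, 3A10t and 1G12t Tregs. Dhodh, the most abundant, was at 52.4, 53.4 and 49.5 TPM in EV no IL-2, 44.9, 50.7 and 40.9 TPM in EV+IL-2, 54.2, 50.2 and 51.0 TPM in 1G12t and 43.2, 61.0 and 53.6 TPM in 3A10t Tregs. These groups overlapped. Its log2 fold change in EV+IL-2 was -0.19, with a 95% interval from -0.45 to 0.08. Cad averaged 12.6 ± 1.2 TPM in EV+IL-2 and 9.32 ± 0.73 TPM in EV no IL-2 Tregs, with no overlap and a log2 fold change of 0.40 (SE 0.14, adjusted p = 0.10). Umps was at 21.3 to 32.0 TPM in the 12 libraries.

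PRPP is the activated ribose that both de novo routes and base salvage consume. Prps1, the more abundant of its 2 synthetases, was at 107, 122 and 112 TPM in EV no IL-2, 106, 108 and 88.4 TPM in EV+IL-2, 114, 102 and 96.7 TPM in 1G12t and 132, 116 and 128 TPM in 3A10t Tregs. The 3A10t libraries were on the high side, but overlapped EV no IL-2. Prps2 averaged 21.0 ± 1.0 TPM in EV no IL-2, 23.1 ± 1.8 TPM in EV+IL-2 and 15.7 ± 2.8 TPM in 3A10t Tregs, with a log2 fold change in 3A10t of -0.41 (SE 0.12, unadjusted p = 0.0062, adjusted p = 0.089). Prps2 over Prps1 was 0.180 to 0.189 in EV no IL-2, 0.199 to 0.257 in EV+IL-2, 0.158 to 0.213 in 1G12t and 0.112 to 0.142 in 3A10t Tregs. On this ratio 3A10t stood below every other library.

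**Figure D3:**
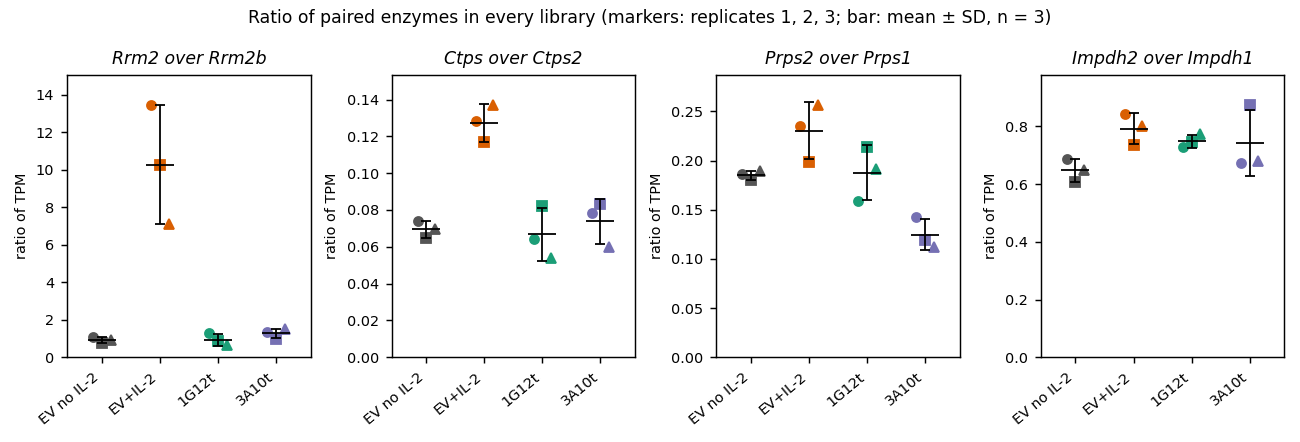
Ratio of TPM of paired enzymes (y axis, from 0) in each library of the 4 groups, with replicates 1, 2 and 3 as circles, squares and triangles and the mean and SD of 3 as black bars. Rrm2 over Rrm2b and Ctps over Ctps2 are highest in the EV+IL-2 libraries, at 7.11 to 13.5 and 0.117 to 0.137, and Prps2 over Prps1 is lowest in the 3A10t libraries, at 0.112 to 0.142.

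The purine ring is assembled on PRPP by Ppat, Gart, Pfas, Paics, Adsl and Atic, which end at IMP. Of these 6 genes 0 were called by limma in any comparison with EV no IL-2, and those with an unadjusted p under 0.05 numbered 1 for EV+IL-2, 2 for 3A10t and 1 for 1G12t Tregs. In the same order 13.3%, 2.05% and 0.0199% of all genes were called, and 26.3%, 26% and 7.04% had an unadjusted p under 0.05. Adsl, the most abundant, was at 106, 104 and 95.4 TPM in EV no IL-2, 98.4, 100 and 90.4 TPM in EV+IL-2, 97.6, 92.0 and 81.4 TPM in 1G12t and 99.2, 102 and 97.7 TPM in 3A10t Tregs. Its groups overlapped, and the 95% interval of the log2 fold change in EV+IL-2 was -0.26 to 0.11. Paics and Gart were apart and higher in EV+IL-2, at 106 ± 4.8 TPM against 90.6 ± 3.5 TPM and 81.7 ± 1.2 TPM against 72.1 ± 4.1 TPM, with adjusted p of 0.38 and 0.31. Ppat, which commits PRPP to the route, averaged 25.0 ± 0.83 TPM in EV no IL-2 and 25.3 ± 1.3 TPM in EV+IL-2, but 20.2 ± 3.3 TPM in 1G12t and 20.0 ± 0.72 TPM in 3A10t Tregs (log2 fold change -0.30 and -0.31, adjusted p = 0.70 and 0.12). Atic, the last step, averaged 15.0 ± 1.3 TPM in EV no IL-2 and 19.0 ± 1.4 TPM in 3A10t Tregs (log2 fold change 0.32, adjusted p = 0.10). Pfas was the least abundant member, at 7.14 to 8.86 TPM in the 12 libraries. Ppat and Paics start from opposite strands and overlap by 272 bases.

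IMP is turned into AMP through Adss and Adsl and into GMP through Impdh1 or Impdh2 and Gmps. Impdh1 was at 106, 109 and 101 TPM in EV no IL-2, 101, 111 and 98.9 TPM in EV+IL-2, 103, 89.2 and 84.6 TPM in 1G12t and 111, 98.4 and 112 TPM in 3A10t Tregs, with overlap throughout. Impdh2, the form known to rise in proliferating lymphocytes, averaged 68.1 ± 3.9 TPM in EV no IL-2 and 82.0 ± 3.1 TPM in EV+IL-2 Tregs, which did not overlap (log2 fold change 0.26, SE 0.09, adjusted p = 0.067). Impdh2 over Impdh1 was below 1 in every library, at 0.607 to 0.687 in EV no IL-2 and 0.735 to 0.842 in EV+IL-2 Tregs. A pseudogene of Impdh2 was listed at 11.0 TPM on average and may share its reads. Adss at 58.0 ± 3.2 and 64.2 ± 6.5 TPM and Gmps at 15.3 ± 0.79 and 14.9 ± 1.2 TPM overlapped between both EV groups.

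Grouped by role, the calls in EV+IL-2 Tregs fell as 2 of 3 ribonucleotide reductase genes, 2 of 3 thymidylate and folate genes, 2 of 4 deoxynucleotide salvage and dUTP genes, 1 of 2 CTP genes, 1 of 3 salvage genes and 1 of 4 kinases. All of these calls were higher except that of the reductase gene Rrm2b, which was lower. Over all genes tested 13.3% were called in this comparison. These role groups are small, and no difference between them was tested. The 15 genes of PRPP, pyrimidine and purine synthesis up to AMP and GMP had 0 calls by limma. Of them 3 had an unadjusted p under 0.05, against 26.3% of all genes. In a fit of only the 6 libraries of both EV groups Cad, Impdh2 and Paics were called higher, with 21.3% of all genes called. Cad was called in 4 and Impdh2 in 6 of 24 alternatives. Summed TPM of the reductase genes was 65.5 to 74.2 in EV no IL-2 and 148 to 192 in EV+IL-2, and of the thymidylate and folate genes 59.3 to 70.0 and 134 to 151. For the 6 purine genes the sums were 299 to 321 and 328 to 341, and for the 3 pyrimidine genes 85.3 to 89.2 and 75.9 to 93.8. The sum of all 35 was 2865 to 3153 TPM in EV no IL-2, 3243 to 3600 TPM in EV+IL-2, 2599 to 2993 TPM in 1G12t and 3023 to 3192 TPM in 3A10t Tregs.

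**Figure D4:**
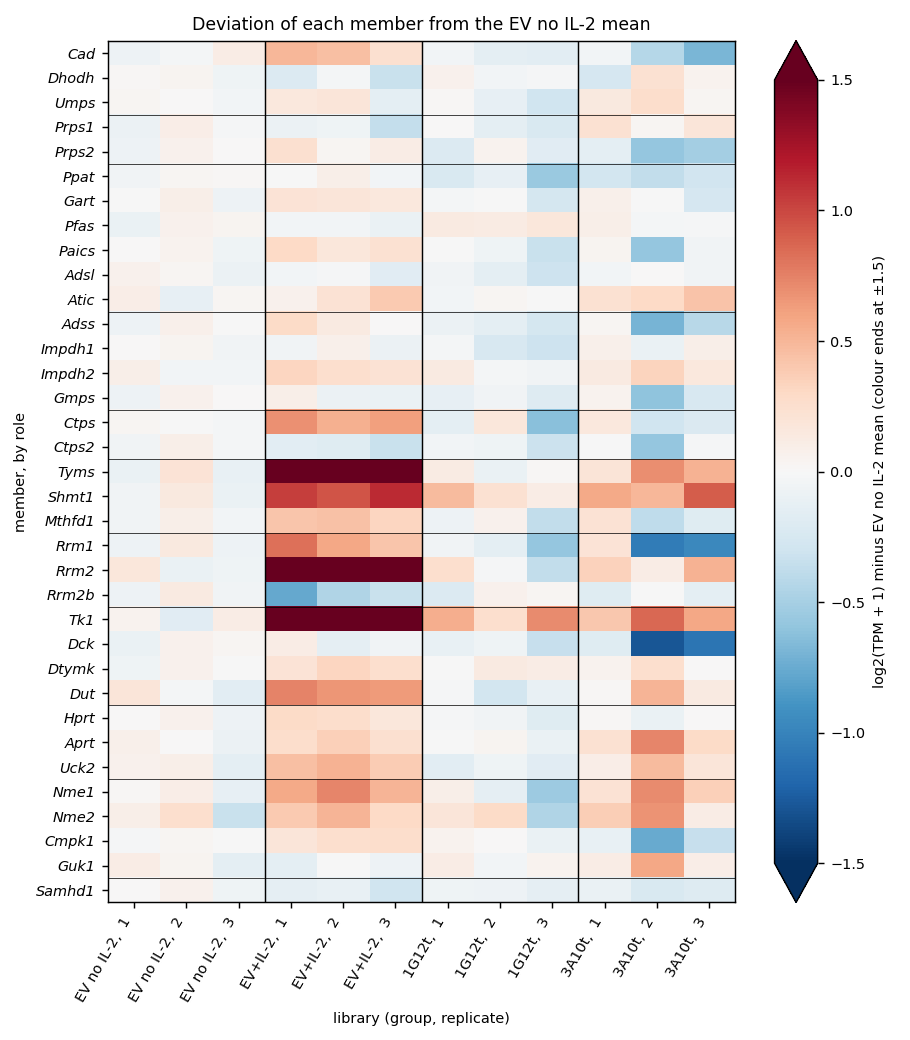
Deviation of each of the 35 genes (rows, by role) in each of the 12 libraries (columns, by group and replicate) from the EV no IL-2 mean, on the log2(TPM + 1) scale, red for higher and blue for lower, with colours that end at 1.5 in either direction. The deepest red lies at Tyms, Rrm2 and Tk1 in the 3 EV+IL-2 columns and the deepest blue at Dck and Rrm1 in 3A10t replicates 2 and 3, whereas 3A10t replicate 1 is paler.

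The tethered and the soluble signal were compared directly. Between 3A10t and EV+IL-2 Tregs 16 members were called (45.7% against 23.4% of all genes), 14 lower and 2 higher in 3A10t, where 13% of all genes were lower and 10.3% higher. The lower ones were Rrm2 (-2.47, adjusted p = 1.3e-05), Tk1 (-1.75, adjusted p = 5.2e-05), Tyms (-1.23, adjusted p = 0.00022), Rrm1 (-1.22), Dck (-0.83), Cad (-0.78), Ctps (-0.72), Cmpk1 (-0.63), Prps2 (-0.54), Mthfd1 (-0.51), Adss (-0.50), Dut (-0.46), Ppat (-0.32) and Hprt (-0.26), given as log2 fold changes. Rrm2b (0.40, adjusted p = 0.040) and Prps1 (0.32, adjusted p = 0.047) were higher. The remaining 19 members were not called, among them Shmt1 (-0.37, adjusted p = 0.061), Nme1 (-0.18, 95% interval -0.54 to 0.18), Uck2 (-0.20, interval -0.43 to 0.04) and Samhd1 (0.01, interval -0.15 to 0.16). Single libraries mattered here. Tyms, Rrm2, Tk1, Cad, Prps2 and Cmpk1 were called whichever library was left out, and Rrm1 except without EV+IL-2 replicate 1 (adjusted p = 0.053). Ppat, Prps1 and Adss lost their calls in 10, 9 and 11 of the 12 fits with a library left out (adjusted p up to 0.14, 0.18 and 0.14), and Prps1 and Ppat also with the shared sort as a block (both adjusted p = 0.051). Ctps lost its call without EV+IL-2 replicate 1, 3A10t replicate 2 or 3A10t replicate 3 (adjusted p = 0.051 to 0.058), and Hprt without EV+IL-2 replicate 1 or 2 or 3A10t replicate 3 (0.054 to 0.094). Mthfd1 and Dck lost theirs without any EV+IL-2 library or 3A10t replicate 2 or 3 (0.058 to 0.094 and 0.051 to 0.091), Dut without any EV+IL-2 library or 3A10t replicate 1 or 3 (0.061 to 0.097), and Rrm2b without replicates 1 or 3 of EV no IL-2, replicates 1 or 2 of EV+IL-2, or replicates 2 or 3 of 3A10t (0.053 to 0.16). The count of members called was 6 without EV+IL-2 replicate 1, 8 without EV+IL-2 replicate 2, 10 without EV+IL-2 replicate 3 and 8 without 3A10t replicate 3, where 12.9%, 15.8%, 16.4% and 16.6% of all genes were called. In a fit of only these 6 libraries 5 members were called, Ctps, Ppat, Rrm2, Tk1 and Tyms, all lower (12.6% of all genes called).

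Between the 2 tethers limma called 0 of 35 members, against 4.27% of all genes, while 14 members had an unadjusted p under 0.05 (29.7% of all genes). The study's own limits were met by 5 members, all higher in 3A10t (12.4% of all genes met them, 5.29% higher in 3A10t). These were Nme1 (0.63, adjusted p = 0.053), Tyms (0.46, adjusted p = 0.073), Aprt (0.44, adjusted p = 0.058), Uck2 (0.39, adjusted p = 0.059) and Atic (0.32, adjusted p = 0.073). Their 3A10t libraries lay above all 1G12t libraries, but these genes were picked by p-value, so this is no separate support. With the shared sort as a block Nme1, Aprt and Uck2 were called (adjusted p = 0.038, 0.045 and 0.039), and without 3A10t replicate 1 the count was 13 (27.6% of all genes). In 1G12t Tregs, the 35 genes had a median log2 fold change from EV no IL-2 of -0.11, against -0.0038 over all genes. In 1G12t replicate 3, 28 of the 35 genes lay below the EV no IL-2 mean, with a median deviation of -0.18 against 0 over all genes. In the control library EV no IL-2 replicate 3, 27 lay below it, with a median deviation of -0.053 against 0. Without 1G12t replicate 3 the median log2 fold change of the 35 genes was -0.033.

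Within 3A10t Tregs the libraries disagreed on part of the list. Replicates 2 and 3 were both below every other library for 7 of the 35 genes, Cad, Prps2, Adss, Gmps, Rrm1, Dck and Cmpk1, and both above every other library for 0, against 15% and 7.76% of all genes tested. Left with replicates 2 and 3 alone, 13 members were called against EV no IL-2, 6 higher (Aprt, Atic, Shmt1, Tk1, Tyms and Uck2) and 7 lower (Adss, Cad, Cmpk1, Dck, Gmps, Prps2 and Rrm1). In the same fit 23.2% of all genes were called, 7.91% higher and 15.3% lower. Without replicate 2 or replicate 3 limma called 0 members, with 0.315% and 0.227% of all genes called. In each 3A10t library the longer members lay lower, by median, than the shorter ones. The same order held in each EV+IL-2 and 1G12t library and in EV no IL-2 replicate 1. Among the 17 members whose longest annotated transcript is under 3170 bases, the median deviation from EV no IL-2 was 0.13, 0.25 and 0.11 in the 3A10t libraries, and among the 18 longer ones it was 0.023, -0.13 and -0.16. Across the 35 genes, Spearman's correlation of length with deviation was -0.40, -0.41 and -0.44 in these libraries, against -0.092, -0.32 and -0.25 across 14857 genes, with genes of a library sharing its preparation. Across the 35 genes it was -0.17, -0.27 and -0.26 in the EV+IL-2 libraries and -0.46, -0.21 and -0.052 in the 1G12t libraries. Within EV no IL-2 it was -0.53, 0.23 and 0.24, so a single control library had a correlation as strong as those of 3A10t. After a length correction, chosen after the data were seen, the Shmt1 call in 3A10t remained, and it was lost when the sort block was added.

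**Figure D5:**
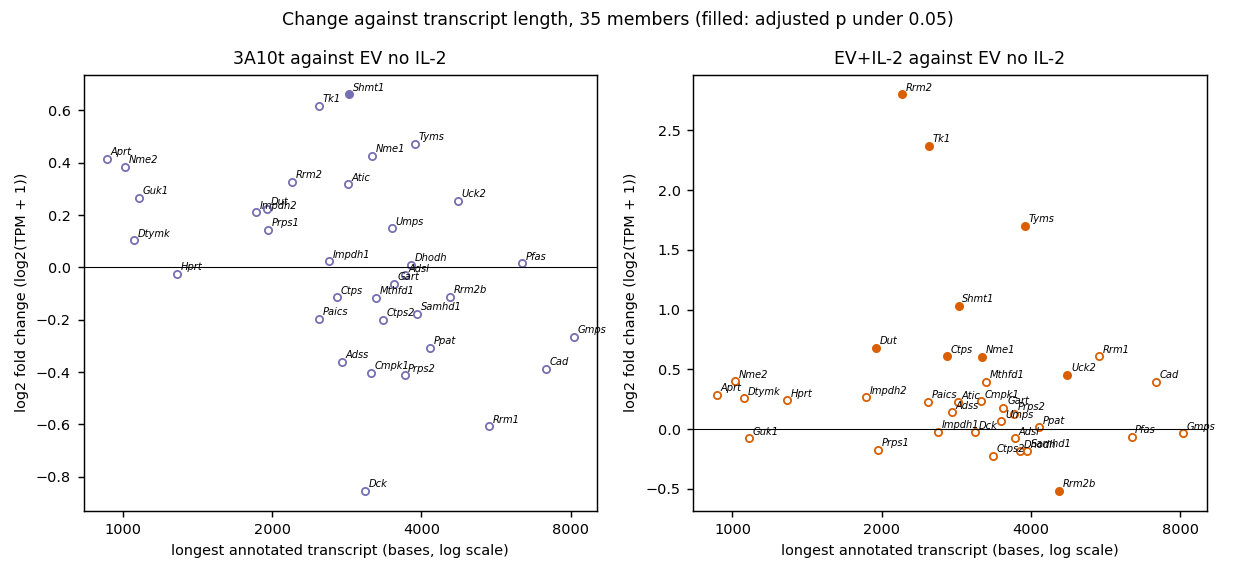
Log2 fold change relative to EV no IL-2 (y axis, log2(TPM + 1) scale) by longest annotated transcript (x axis, bases, log scale) for the 35 genes, in 3A10t (left) and EV+IL-2 Tregs (right). Filled points have an adjusted p under 0.05. On the left, the 7 shortest genes lie between -0.03 and 0.42 and the lowest points are Dck and Rrm1, and on the right the highest points, Rrm2 and Tk1, have transcripts of 2193 and 2490 bases.

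Neighbouring enzymes outside the list were counted in the same fit. Of 24 other nucleotide enzymes tested, 4 were higher and 3 lower in EV+IL-2 Tregs, where 8.17% of all genes were called higher and 5.13% lower. Dctpp1, which cleans up modified dCTP, rose (0.79, adjusted p = 0.011), whereas Tk2, the mitochondrial thymidine kinase, and Adk, adenosine kinase, fell by 0.61 each (adjusted p = 0.0016 and 0.0035). So the cytosolic Tk1 rose and the mitochondrial Tk2 fell in the same libraries, with Tk2 at 97.1, 106 and 101 TPM in EV no IL-2 and 64.9, 67.8 and 64.9 TPM in EV+IL-2. Of 17 other folate and serine enzymes 4 were higher and 1 lower, among them the serine synthesis enzymes Psat1 (0.81, adjusted p = 0.0015) and Phgdh (0.75, adjusted p = 0.00082) and the mitochondrial folate enzyme Mthfd2 (0.59, adjusted p = 0.0045). Of 21 nucleotide breakdown genes 1 was called, Ada, adenosine deaminase (1.40, adjusted p = 1.7e-05). In 3A10t Tregs limma called 0 of 24, 1 of 17 (lower, Mtr, methionine synthase) and 0 of 21, against 2.05% of all genes. In each list 4 had an unadjusted p under 0.05, against 26% of all genes. In 1G12t Tregs 0 of each were called, with 1, 0 and 1 at an unadjusted p under 0.05 (7.04% of all genes).

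Cell cycle genes were counted in the same fit. In EV+IL-2 Tregs 32 of 40 S phase genes and 30 of 30 mitosis genes were higher, against 8.17% of all genes. Their median log2 fold changes were 0.88 and 2.48. Ccne2 (2.06), Mcm5 (1.75) and Uhrf1 (1.65) led the S phase list at the level set for naming, and Birc5 (3.79), Ccna2 (3.43) and Ccnb2 (3.37) the mitosis list. Pcna averaged 117 ± 6.6 and 181 ± 11 TPM, Mki67 1.24 ± 0.052 and 9.90 ± 1.4 TPM and Top2a 7.58 ± 0.36 and 61.0 ± 7.2 TPM in EV no IL-2 and EV+IL-2 Tregs. The summed mitosis list was 132 to 159 TPM in EV no IL-2, 710 to 972 TPM in EV+IL-2, 128 to 161 TPM in 1G12t and 180 to 231 TPM in 3A10t Tregs. In 3A10t Tregs 2 of the 40 S phase and 1 of the 30 mitosis genes were called, all higher, with 2.05% of all genes called. There 15 S phase and 14 mitosis genes had an unadjusted p under 0.05, against 26% of all genes. The log2 fold change was above 0 for 27 and 28 genes of these lists, with medians of 0.17 and 0.39. Over all genes tested the median was 0.026, so most of them lay above 0 too. In 1G12t Tregs limma called 0 of both, with 1 and 2 at an unadjusted p under 0.05 (7.04% of all genes) and medians of -0.043 and 0.082. The part of the share of cycling cells in the changes of Rrm2, Tk1, Tyms and Dut was not tested. Myc, a regulator of nucleotide synthesis genes, was at 334, 318 and 286 TPM in EV no IL-2, 545, 566 and 516 TPM in EV+IL-2, 302, 270 and 188 TPM in 1G12t and 339, 301 and 345 TPM in 3A10t Tregs. Its log2 fold change was 0.79 in EV+IL-2 (adjusted p = 0.0049) and 0.07 in 3A10t (adjusted p = 0.78).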

How the data were processed

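Expression was measured by RNA sequencing of oligo-dT-primed cDNA, amplified for 15 cycles, in libraries made with a transposase and read as 50 bp pairs. The kit does not record strand. The authors trimmed reads with cutadapt 1.18, aligned them with STAR 2.5.3 and estimated gene levels with RSEM 1.3.0 on GRCm38 with GENCODE m23, and deposited TPM for 55228 symbols in 12 libraries (DESeq2 1.26 is also named in the submitters' notes). No counts were used here. TPM were rescaled by median-of-ratios factors (0.854 to 1.09), filtered at a mean TPM of at least 1, transformed as log2(TPM + 1) and fitted with limma 3.58.1 in R 4.3.3 over all 12 libraries, with a trend and no replicate block. P-values were adjusted by the Benjamini-Hochberg method over 15043 genes and measure only the spread between cultures of a single pool of 16 mice. The script was tested on simulated data.

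The members, lists, motifs and alternatives were chosen with earlier results of these data known. Library values are printed for each member called in a comparison with EV no IL-2 and for the most abundant member of each role without a call. Of each related list the 3 genes of largest change among those called, at a mean TPM of at least 5, are named, with Pcna, Mki67, Top2a and Myc. Other members and genes were named after their values were seen. Gene overlaps and transcript lengths came from GENCODE M21 on GRCm38, and promoter windows from RefSeq on GRCm38.p6. Figures were drawn with matplotlib 3.10.9 in Python 3.11.15. Replicate numbers pair the samples because, per the labels, a number marks a shared sort. The mean correlation of deviations was 0.041 over 18 pairs with the same number (-0.11 to 0.15) and -0.020 over 36 pairs with different numbers. Some marker genes are not reported here.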

Additional observations from a re-analysis of the deposited data

How the results depend on the processing

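For EV+IL-2 against EV no IL-2, members called numbered 17 in a fit of the 6 libraries compared, 18 with library weights and 5 to 14 with a library left out. In these fits 21.3%, 27.7% and 8.08% to 17.8% of all genes were called. The members' median log2 fold change was 0.17 on TPM as deposited. Breakdown genes called numbered 4 with 6 libraries, 5 with weights, 2 after the length correction, 3 after it with the block and 1 to 3 with a library left out, and other nucleotide enzymes 11 with weights. After the length correction 16% of all genes were called, and 15.7% after it with the block. For 3A10t against EV no IL-2, members called numbered 0 without the filter, on deposited TPM, with 6 libraries and after the length correction with the block. They numbered 20 with weights and 0 to 13 with a library left out. In the order of these fits 0.43%, 3.32%, 0.0266%, 1.14%, 45% and 0.166% to 23.2% of all genes were called. The members' median, 0.0094, was 0.063 after the length correction, with or without the block. It turned negative on deposited TPM (-0.14), with weights (-0.00777) and without EV no IL-2 replicate 3, 3A10t replicate 1 or 3A10t replicate 3 (-0.0208 to -0.00932). Other nucleotide enzymes called there numbered 1 with a pseudocount of 0.1, 2 on deposited TPM, 15 with weights, 1 after the length correction and 0 to 7 with a library left out. Folate enzymes numbered 0 without the filter, with 6 libraries and after either length correction, 2 on deposited TPM, 9 with weights and 0 to 6 with a library left out, and breakdown genes 9 with weights and 0 to 6. S phase genes numbered 1 with a pseudocount of 5, without the filter, at a mean TPM of at least 5, on deposited TPM, with quantile normalization and without the trend, 0 with 6 libraries, 21 with weights and 0 to 10 with a library left out. Mitosis genes numbered 3 with a pseudocount of 0.1, 0 without the filter, on deposited TPM and with 6 libraries, 2 at a mean TPM of at least 5, 4 with the block, 18 with weights, 2 after the length correction with the block and 0 to 6 with a library left out. For the same comparison, 2.05% of all genes were called with a pseudocount of 0.1, 1.77% with one of 5 and 3.88% at a mean TPM of at least 5. The share was 1.21% with quantile normalization, 1.24% without the trend, 2.67% with the block and 0.784% after the length correction. The 1G12t median ranged from -0.127 to -0.0331 with a library left out.

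Between 3A10t and EV+IL-2, members called numbered 5 with 6 libraries, 28 with weights and 6 to 18 with a library left out. In these fits 12.6%, 60.1% and 12.9% to 33.7% of all genes were called. The members' median was -0.31 on deposited TPM, -0.17 with quantile normalization, -0.16 after either length correction and -0.285 to -0.164 with a library left out. Between 3A10t and 1G12t, members called numbered 3 at a mean TPM of at least 5, 1 with quantile normalization, 3 with the replicate block, 18 with weights, 1 after the length correction with the block and 0 to 13 with a library left out. In the same order 11.7%, 3.19%, 6.56%, 43.2%, 1.52% and 0.316% to 27.6% of all genes were called. The members' median, 0.057, turned to -0.14 on deposited TPM and was 0.0125 to 0.129 with a library left out. With the replicate block, 11 members were called in EV+IL-2 (Dtymk and Nme2 were added), 1 in 3A10t and 0 in 1G12t against EV no IL-2, and 14 between 3A10t and EV+IL-2. The shares of all genes called were 13.1%, 2.67%, 0.0199% and 24.7% in the same order. Fits with a library left out or on 6 libraries hold fewer samples, and the cause of the other shifts was not tested. The library weights did not converge and gave 3A10t replicate 3 a weight of 23, against 0.189 to 1.98 for the others. No member's fold change with an unadjusted p under 0.05 changed sign in an alternative. The length corrections were chosen after the data were seen. Tyms, Shmt1, Rrm2, Tk1 and Dut were called in EV+IL-2 in 24 of 24 alternatives. TPM hold no read number, so counting error is unknown.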
